A study of Mus musculus with 6 samples.

Results

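The measurements concern 10 genes of hepatic glucose production and glycogen metabolism, taken by name from a table of 56305 genes. They are Pck1, G6pc, Slc37a4, Fbp1, Pcx and Ppargc1a on the gluconeogenic side and Gys2, Pygl, Gbe1 and Ppp1r3c on the glycogen side. RNA-Seq was carried out on whole liver of 3 WT and 3 Vps15LKO mice, with 1 library per liver. Vps15LKO mice (AlbCre+;Vps15 f/f) lack Vps15, the regulatory subunit of class 3 PI3K encoded by Pik3r4, through a chronic deletion driven by Cre under the albumin promoter, which is active in hepatocytes. The animals were males of 5 weeks, fed ad libitum and collected at Zeitgeber time 6 (ZT6), in the light phase. The sources used here do not give the Vps15 and Cre alleles of the WT animals of this experiment. The comparison asks how the transcripts of these enzymes stand in whole liver of mice with this deletion. Values below are normalized counts, in which the reads of a gene are divided by the size factor of the library.

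Gluconeogenesis builds glucose from lactate, amino acids and glycerol. Pyruvate is carboxylated to oxaloacetate, oxaloacetate is turned into phosphoenolpyruvate, and fructose bisphosphate and glucose 6-phosphate are then dephosphorylated, the last step inside the endoplasmic reticulum. Glycogen is the store from which the liver releases glucose between meals: glycogen synthase and the branching enzyme build it, phosphorylase breaks it down, and phosphatase targeting subunits on the glycogen particle shift the balance towards synthesis. Both routes are strongest in hepatocytes, and several of their genes are switched on by glucagon through cAMP.

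In Vps15LKO liver 9 of the 10 genes were called lower and 0 higher, and Gbe1 was not called. A gene was called at a Benjamini-Hochberg adjusted p under 0.05 in limma, over 15430 tested genes, together with a fold of at least 1.2. All 10 genes passed the filter on low values. Among all tested genes 33.0% were called lower and 33.5% higher, so the background of calls was high in both directions. In 8 of the 10 genes every Vps15LKO liver lay below every WT liver, against 36.8% of all tested genes (36.4% lay wholly above). The median log2 fold change of the 10 genes was -1.71, and that of all tested genes was -0.02.

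**Figure D1:**
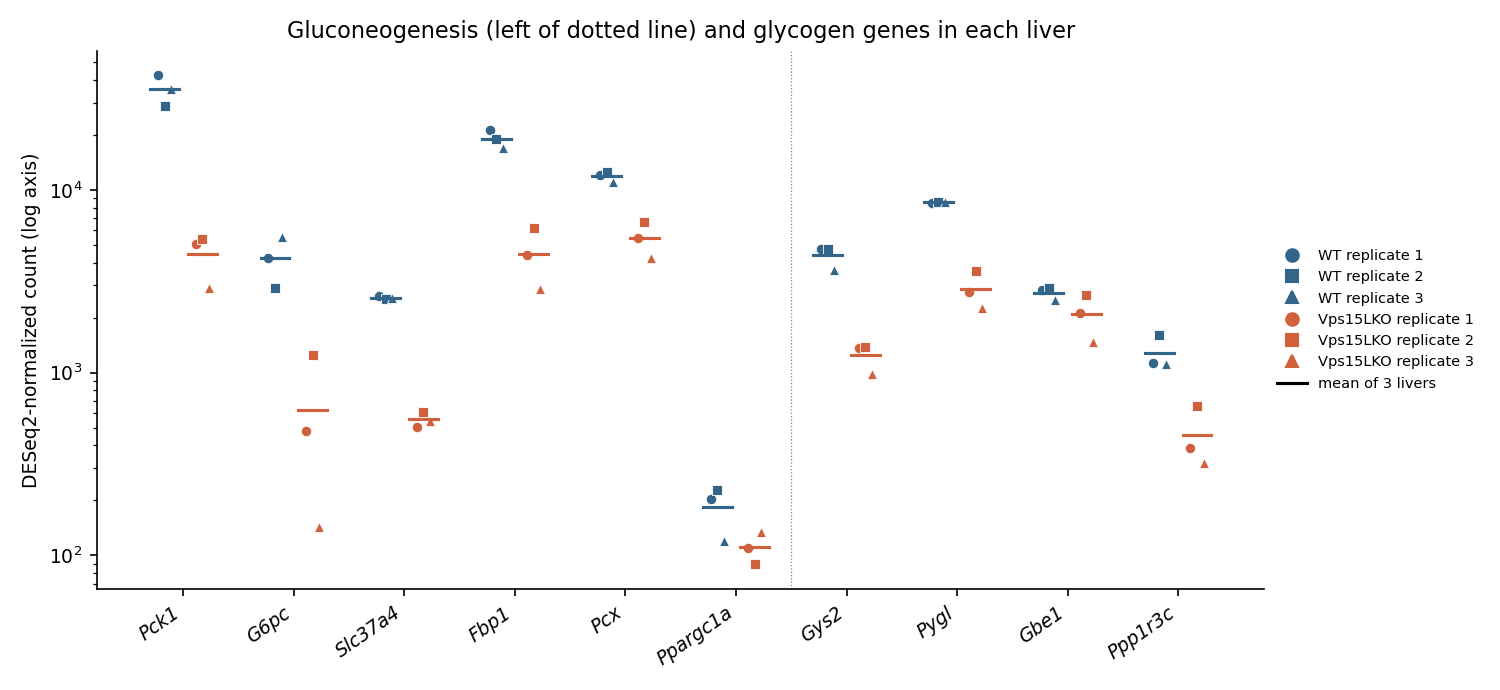
Normalized counts of the 10 genes on a log axis, with 1 point per liver (WT blue, Vps15LKO orange, symbols for replicates 1 to 3) and a line at the mean of the 3 livers of each genotype. The groups are apart in 8 genes and overlap in Ppargc1a and Gbe1.

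The size of these changes depended on how the libraries were scaled. The libraries held between 16137093 and 18110223 reads on genes, yet the weight of 1 read after normalization was 1.25 to 1.35 in WT liver but 0.707 to 0.810 in Vps15LKO liver. Scaling every library to the same total of reads moved the median of all tested genes up by 0.72 on the log2 scale, and 11.1% of genes were then called lower and 66.8% higher. Under that scaling 8 of the 10 genes were called lower and 0 higher, and their median log2 fold change was -0.99 where that of all genes was 0.70. Quantile normalization called 37.6% of all genes lower and 30.4% higher, with a median log2 fold change of -0.10, and 8 of the 10 genes lower and 0 higher. Pik3r4, the targeted gene, had 514 ± 57.1 (SD, n = 3) normalized counts in WT liver against 353 ± 11.0 in Vps15LKO liver, a log2 fold change of -0.54 (SE 0.11, limma adjusted p = 0.0021) that was 0.19 under total-read scaling. Exons outside the deleted part and cells without Cre can both give such reads, and their part was not tested.

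Hepatocyte markers were mostly lower in the same libraries. Of 14 such markers 10 were called lower and 0 higher, beside 33.0% and 33.5% of all tested genes. In 13 of the 14 every Vps15LKO liver lay below every WT liver, against 36.8% of all tested genes. Under total-read scaling they were 10 lower and 1 higher, beside 11.1% and 66.8% of all genes. Under quantile normalization they were 6 lower and 1 higher, near the 37.6% of all genes called lower there. The sum over the list was 3642846 to 3929563 in the WT group but 1264922 to 1821354 in the Vps15LKO group. Alb, which encodes albumin, stood at 2183718 ± 160227 (SD, n = 3) against 792222 ± 174159 normalized counts, and Trf, which encodes transferrin, at 387371 ± 10499 against 249518 ± 37494, without overlap between genotypes, though limma called neither (adjusted p of 0.37 and 0.35). Markers of cholangiocytes and their progenitors went the other way: all 10 were called higher, and their sum was 1334 to 1503 in WT liver against 12948.5 to 24699 in Vps15LKO liver. Of 10 endothelial markers 5 were called lower and 4 higher (0 and 6 under total-read scaling), with 3 lower when any liver but Vps15LKO replicate 2 was left out, and their sum overlapped at 8341 to 9188 against 6980.1 to 8900.8 normalized counts. Whole liver RNA cannot tell fewer hepatocytes apart from less RNA of these genes in each hepatocyte.

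Pck1 (ENSMUSG00000027513, chr2:173153048-173159273, plus strand) encodes cytosolic phosphoenolpyruvate carboxykinase and is a classic target of glucagon and cAMP. Here and below, positions are those of the gene in GRCm38 (GENCODE M21). Its normalized counts were 42450.3, 28684 and 35546 among the WT animals and 5045, 5386 and 2909.7 among the Vps15LKO animals. The genotypes were far apart, and the highest Vps15LKO liver lay well below the lowest WT liver. The mean in Vps15LKO liver was 12.5% of that in WT liver, with a log2 fold change of -3.03 (SE 0.25, limma adjusted p = 1.8e-05). Under quantile normalization the log2 fold change was -2.02, also called.

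G6pc (ENSMUSG00000078650, chr11:101367561-101377903, plus strand) encodes the catalytic subunit of glucose-6-phosphatase, which releases free glucose in the final step of both pathways. Its normalized counts were 4242, 2900.4 and 5513 in WT liver and 479, 1255 and 142 in Vps15LKO liver. The groups did not overlap, but the Vps15LKO livers differed widely among themselves, with a coefficient of variation of 91.3% against 31.0% in WT. The log2 fold change was -3.21 (SE 0.66, limma adjusted p = 0.0024), and it was -3.96 without Vps15LKO replicate 2 and -2.39 without Vps15LKO replicate 3. Slc37a4 (ENSMUSG00000032114, chr9:44396852-44402968, plus strand) encodes the transporter that carries glucose 6-phosphate to that phosphatase. It stood at 2627, 2516 and 2575 normalized counts in WT liver and 506, 609 and 547 in Vps15LKO liver. Both genotypes were tight around their means, and the adjusted p was the smallest of the 10 genes (log2 fold change -2.22, SE 0.09, limma adjusted p = 7.4e-07).

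Fbp1 (ENSMUSG00000069805, chr13:62864753-62888282, minus strand) encodes fructose bisphosphatase, which works against phosphofructokinase. Its levels were 21256, 19041 and 16967 normalized counts in WT liver and 4402, 6185 and 2860.2 in Vps15LKO liver. All 3 Vps15LKO livers were under the WT range, with a log2 fold change of -2.15 (SE 0.25, limma adjusted p = 0.00011) that was -1.19, also called, under quantile normalization. Pcx (ENSMUSG00000024892, chr19:4510472-4621752, plus strand) encodes pyruvate carboxylase, the mitochondrial entry step, which also refills the citric acid cycle. It stood at 12046, 12581 and 11048 normalized counts in WT liver and 5446, 6655 and 4237 in Vps15LKO liver. The groups did not overlap, and the fall was the smallest among the enzymes of gluconeogenesis (log2 fold change -1.15, SE 0.17, limma adjusted p = 0.00039). Under quantile normalization the log2 fold change of Pcx was -0.23 and not called (limma adjusted p = 0.18).

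Ppargc1a (ENSMUSG00000029167, chr5:51454250-51567726, minus strand) encodes PGC-1α, a coactivator that raises transcription of gluconeogenic genes in fasting. It was scarce, at 204, 227 and 120.0 normalized counts in WT liver and 109, 89.1 and 134 in Vps15LKO liver. WT replicate 3 lay below Vps15LKO replicate 3, so the groups overlapped. The log2 fold change of -0.69 (SE 0.25, limma adjusted p = 0.038) was 0.030 under total-read scaling, and the call held in 10 of 19 alternative settings.

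On the glycogen side, Gys2 (ENSMUSG00000030244, chr6:142422613-142473109, minus strand) encodes the liver form of glycogen synthase. Its normalized counts were 4758, 4770.3 and 3648 in WT liver and 1371, 1375 and 978 in Vps15LKO liver. The groups stood clearly apart, with a Vps15LKO mean at 28.3% of the WT mean and a log2 fold change of -1.83 (SE 0.16, limma adjusted p = 2.5e-05). Pygl (ENSMUSG00000021069, chr12:70190811-70231488, minus strand) encodes liver glycogen phosphorylase, the enzyme of the opposite reaction. It stood at 8461, 8618 and 8546 normalized counts in WT liver, which agreed within a coefficient of variation of 0.92%, and at 2763, 3586 and 2264 in Vps15LKO liver. No liver overlapped between genotypes (log2 fold change -1.60, SE 0.16, limma adjusted p = 4.6e-05), and under quantile normalization the log2 fold change was -0.91, also called. The log2 ratio of Gys2 to Pygl within each liver averaged -0.97 ± 0.22 (SD, n = 3) in WT and -1.20 ± 0.19 in Vps15LKO liver, and the groups overlapped.

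Ppp1r3c (ENSMUSG00000067279, chr19:36731731-36736653, minus strand) encodes PTG, which brings protein phosphatase 1 to glycogen. Its normalized counts were 1135, 1616 and 1113 in WT liver and 388, 652 and 319 in Vps15LKO liver. All Vps15LKO livers were below the WT range (log2 fold change -1.55, SE 0.26, limma adjusted p = 0.00071). Gbe1 (ENSMUSG00000022707, chr16:70313949-70569716, plus strand) encodes the glycogen branching enzyme. It stood at 2822, 2895 and 2484 normalized counts in WT liver and 2124, 2648 and 1474 in Vps15LKO liver. Vps15LKO replicate 2 fell inside the WT range, and the log2 fold change of -0.43 had a 95% interval from -0.87 to 0.01 (limma adjusted p = 0.078). Without that liver the log2 fold change of Gbe1 was -0.62 and called (limma adjusted p = 0.0097), without Vps15LKO replicate 3 it was -0.20 (limma adjusted p = 0.22), and under total-read scaling it was 0.30.

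**Figure D2:**
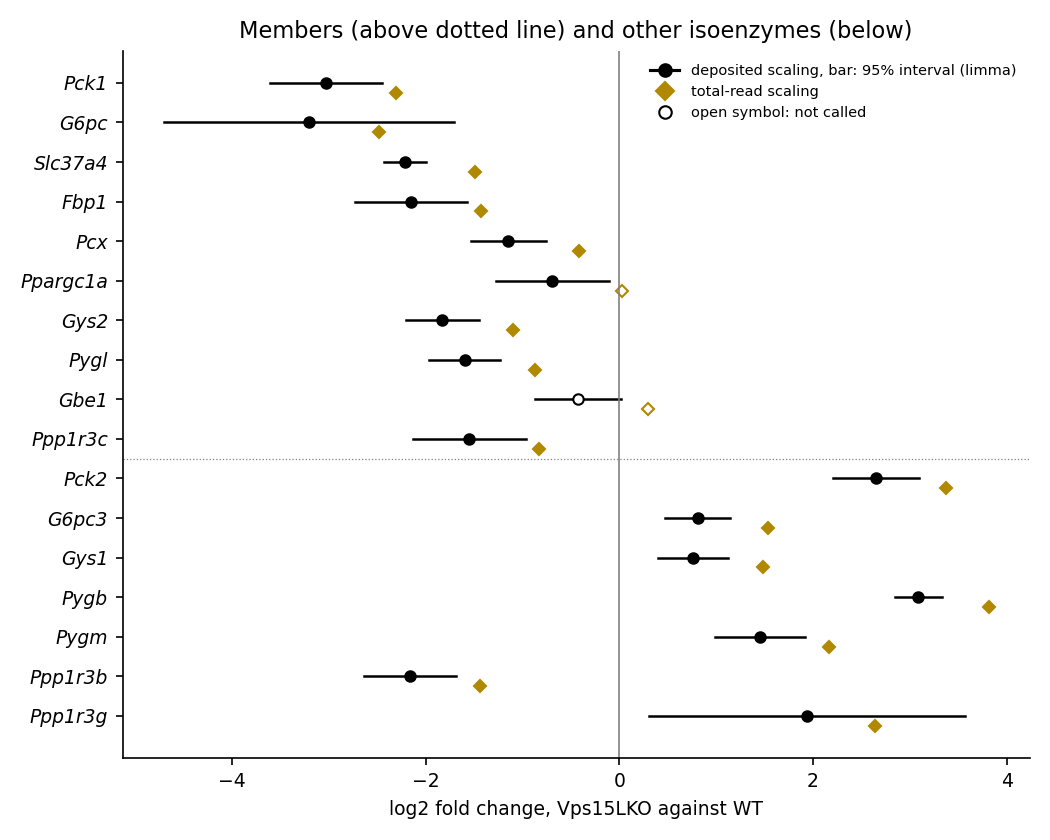
Log2 fold change of Vps15LKO against WT liver for the 10 genes and for 7 other isoenzymes or targeting subunits, with the 95% interval from limma (black) and the value under total-read scaling (gold), filled where called. Of the 10 genes, 9 black points are filled, all left of 0, and 6 of the 7 points below the dotted line lie right of 0.

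Per kilobase of exon, the order of the levels also differed between genotypes. The length used here and below counts every exon base of any annotated transcript of a gene. Levels of different genes therefore depend on the annotation and are not those of single transcripts. In WT liver Fbp1 (11215 normalized counts per kb) and Pck1 (10370.4) led and overlapped each other, followed by Pcx (2502), G6pc (1748) and Gys2 (1653), of which the last pair overlapped. Pygl (1239) and Slc37a4 (900.4) came next, each apart from its neighbours, then Gbe1 (511) and Ppp1r3c (473), which overlapped, and last Ppargc1a (27.9). In Vps15LKO liver Fbp1 (2634) stood alone at the top and Pck1 (1297) overlapped Pcx (1146). The next 6 genes, Gys2 (467), Pygl (416), Gbe1 (389), G6pc (259), Slc37a4 (194) and Ppp1r3c (166), each overlapped the next in order, and Ppargc1a (16.8) was again lowest. Gbe1 stood at rank 8 in WT and rank 6 in Vps15LKO liver, and G6pc at ranks 4 and 7.

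Promoter sequences are shown for Pck1 and G6pc, which changed most, and for Ppp1r3c, which holds an E-box near its start. RefSeq (GRCm38.p6) gave a window of 250 bases before and 50 after a transcription start for 9 of the 10 genes, 12 windows in all. Letters were searched on both strands for CGTCA (the half-site of CREB, the factor activated by cAMP), AAACA (the core of FoxO sites), TATAAA (the TATA box) and CACGTG (the E-box bound by Bmal1–Clock), and capitals mark every match, with TGTTT being AAACA on the other strand. In Pck1 CGTCA begins 90 bases upstream of the start, and in G6pc AAACA occurs 4 times, at 188, 174, 141 and 25 bases upstream, the last sharing 2 bases with TATAAA. In Ppp1r3c CACGTG begins 104 bases upstream.
Pck1, chr2:173152823-173153122, plus strand: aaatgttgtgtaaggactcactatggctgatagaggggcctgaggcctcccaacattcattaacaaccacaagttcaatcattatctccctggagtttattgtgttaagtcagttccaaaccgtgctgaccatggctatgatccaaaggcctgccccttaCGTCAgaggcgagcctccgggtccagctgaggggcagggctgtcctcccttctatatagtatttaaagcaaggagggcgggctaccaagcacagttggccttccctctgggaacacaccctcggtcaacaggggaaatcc
G6pc, chr11:101367466-101367765, plus strand: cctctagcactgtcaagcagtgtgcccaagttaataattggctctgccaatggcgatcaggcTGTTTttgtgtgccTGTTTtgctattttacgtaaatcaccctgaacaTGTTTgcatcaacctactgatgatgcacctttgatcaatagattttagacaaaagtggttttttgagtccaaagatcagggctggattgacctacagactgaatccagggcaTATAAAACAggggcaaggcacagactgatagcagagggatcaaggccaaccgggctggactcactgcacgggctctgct
Ppp1r3c, chr19:36736555-36736854, minus strand: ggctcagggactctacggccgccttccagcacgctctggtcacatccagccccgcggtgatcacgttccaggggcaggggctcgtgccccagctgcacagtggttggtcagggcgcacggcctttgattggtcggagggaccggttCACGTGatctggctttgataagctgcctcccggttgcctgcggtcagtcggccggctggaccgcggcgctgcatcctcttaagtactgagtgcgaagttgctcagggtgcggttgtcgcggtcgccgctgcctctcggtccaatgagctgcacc

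CGTCA was present in 5 of the 12 windows, for 4 of the 9 genes with a window (Pck1, Ppargc1a, Slc37a4 and Pygl), against 20.8% of the 32851 promoters of that length in mouse. CACGTG was present in 2 of 12 windows, for Pcx and Ppp1r3c, against 7.15% of all promoters. AAACA was present in 4 of 12 windows, for G6pc, Slc37a4 and Gbe1, against 50.5%, and 4 or more matches, as in G6pc, occur in 3.24%. TATAAA was present in 2 of 12 windows, for G6pc and Slc37a4, against 13.6%. Slc37a4 has 3 windows and Pcx has 2, so these genes had more sequence to match in, and a match describes letters only.

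The other isoenzymes of the same steps, most of them low in WT liver, went mainly the other way. Of 8 such genes 7 could be tested, and 6 were called higher and 1 lower, against 33.5% and 33.0% of all tested genes. Under quantile normalization 4 were called higher and 1 lower, beside 30.4% and 37.6% of all genes. Pygb, the brain form of glycogen phosphorylase, stood at 118, 127 and 147 normalized counts in WT liver and 1081, 1151 and 1118 in Vps15LKO liver. The Vps15LKO livers agreed closely and lay far above WT (log2 fold change 3.09, SE 0.11, limma adjusted p = 3.3e-07). Pck2, the mitochondrial phosphoenolpyruvate carboxykinase, rose from 53.0, 38.7 and 64.7 to 301, 318 and 364 normalized counts. The log2 fold change was 2.65 (SE 0.19, limma adjusted p = 9.1e-06), again with no overlap.

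Smaller rises without overlap were found for Pygm, the muscle phosphorylase (27.4 ± 3.12 to 77.0 ± 11.8 normalized counts, SD, n = 3), for G6pc3, the widely expressed phosphatase (147 ± 11.0 to 259 ± 44.6), and for Gys1, the muscle synthase (64.5 ± 3.85 to 111 ± 14.4). Gys1 shares 310 exon bases with Ruvbl2 on the other strand, and its call was lost under quantile normalization (log2 fold change 0.27, limma adjusted p = 0.15). Ppp1r3g, a targeting subunit that follows feeding, overlapped between genotypes at 63.6, 25.0 and 5.39 against 97.0, 58.3 and 103 normalized counts. Its log2 fold change was 1.94 (limma adjusted p = 0.039), the call held in 11 of 18 alternative settings, and it was 1.05 without WT replicate 3 and 2.72 without WT replicate 1. Ppp1r3b, the targeting subunit known as GL, was the exception: it fell from 1765, 1073 and 1712 to 266, 371 and 362 normalized counts (log2 fold change -2.16, SE 0.21, limma adjusted p = 3.6e-05). Fbp2, the muscle fructose bisphosphatase, lay between 0 and 4.86 normalized counts in the 6 livers and did not pass the filter of the limma test.

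A log2 ratio of 2 genes within a library moves only through the 1 added to each count when the whole library is multiplied by a factor. Under total-read scaling the mean difference of Pygl to Pygm went from -3.05 to -3.03, and a ratio to a gene near 0, such as Fbp2, moved more. The smallest p that 3 against 3 livers allow in a two-sided exact permutation test is 0.1. The ratio of Pck1 to Pck2 was 9.62, 9.50 and 9.08 in WT liver and 4.06, 4.08 and 2.99 in Vps15LKO liver. The ratio of Pygl to Pygb was 6.15, 6.07 and 5.85 in WT and 1.35, 1.64 and 1.02 in Vps15LKO liver. Both ratios were well below the WT range in every Vps15LKO liver. Per kilobase of exon, the level of Pygl was 45.9 ± 4.84 times (SD, n = 3) that of Pygb in WT and 1.79 ± 0.38 times in Vps15LKO liver. The ratio of G6pc to G6pc3 was 4.75, 4.28 and 5.34 in WT and 0.98, 2.47 and -1.12 in Vps15LKO liver, and in Vps15LKO replicate 3 the level of G6pc per kilobase was 0.42 times that of G6pc3.

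The mean difference was -5.69 for Pck1 to Pck2, -4.69 for Pygl to Pygb, -4.01 for G6pc to G6pc3, -3.05 for Pygl to Pygm and -2.59 for Gys2 to Gys1. Quantile normalization, which reshapes each library, gave smaller differences of -4.36, -3.97, -3.55, -1.74 and -1.65 for these pairs in the same order. In each of these 5 pairs the genotypes did not overlap and the exact permutation p was 0.1, or 0.12 after Benjamini-Hochberg adjustment over 7 pairs. Fbp1 to Fbp2 was the seventh pair, with the same exact permutation p of 0.1, and its size is not given because Fbp2 was at the floor in WT liver. The ratio of Ppp1r3c to Ppp1r3b overlapped (difference 0.61, exact permutation p = 0.3, adjusted p = 0.3), through WT replicate 2 at 0.59 where the other WT livers stood at -0.64 and -0.62, and with a liver left out the difference ran from 0.40 (without Vps15LKO replicate 2) to 1.02 (without WT replicate 2). The difference for G6pc to G6pc3 was -4.86 without Vps15LKO replicate 2 and -3.07 without Vps15LKO replicate 3. Summed markers of some other liver cells were higher in the same Vps15LKO libraries. Beside 33.5% of all tested genes called higher (66.8% under total-read scaling), all 10 stellate cell and fibroblast markers were called higher, with a sum of 7102 to 7541 in WT and 29890.1 to 35353 normalized counts in Vps15LKO liver, and 8 of 10 macrophage markers, with a sum of 7372 to 8899.8 against 22939.8 to 26915. No marker of these lists was at the floor of 3 reads in all livers, and the part of these cells in the levels of the isoenzymes was not tested.

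**Figure D3:**
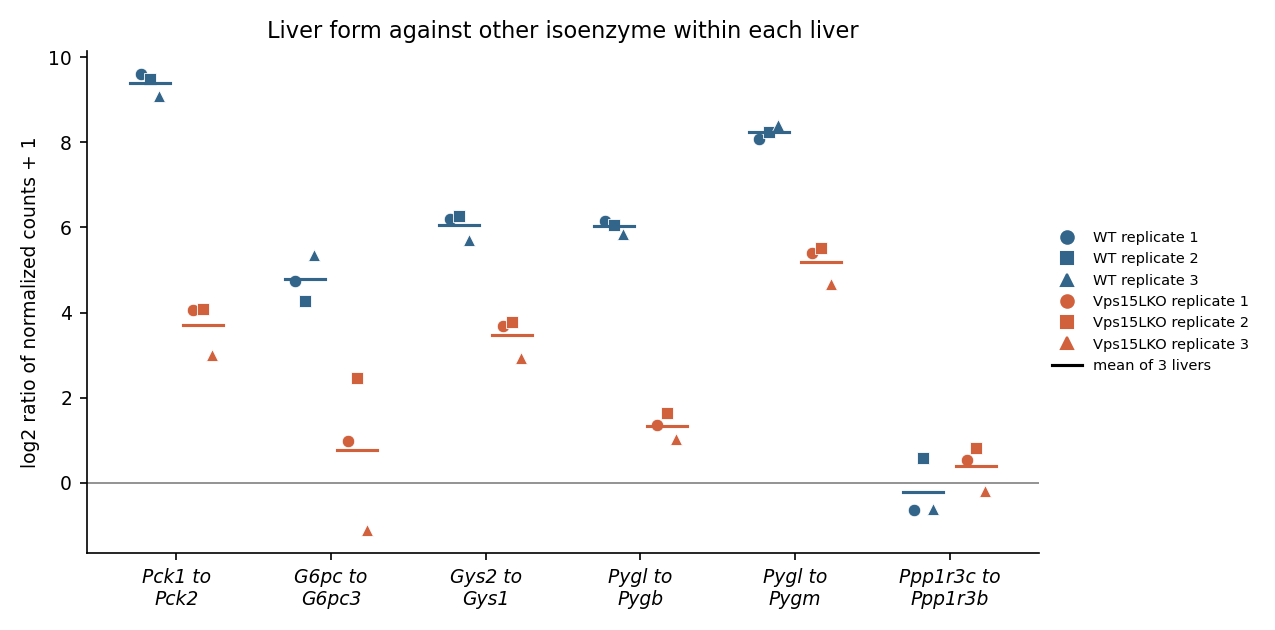
Log2 ratio of the normalized counts (+ 1) of the liver form to those of another isoenzyme or targeting subunit, with 1 point per liver and a line at the mean of 3 livers. WT (blue) and Vps15LKO (orange) are apart in the first 5 pairs and overlap for Ppp1r3c to Ppp1r3b.

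Most genes that bring substrate to gluconeogenesis were lower in Vps15LKO liver. Of 18 genes for pyruvate, lactate, amino acid and glycerol entry and for the mitochondrial shuttles, 15 were called lower and 1 higher, with a median log2 fold change of -1.04, beside 33.0% and 33.5% of all tested genes. Total-read scaling left 9 lower and put 5 higher, beside 11.1% and 66.8% of all tested genes, and these shares are the background for each list that follows. The largest falls were in Sds, serine dehydratase (2694 ± 365 to 476 ± 109.6 normalized counts, SD, n = 3, log2 fold change -2.52), in Slc25a13, the aspartate-glutamate carrier citrin (log2 fold change -1.75), and in Gpd1, cytosolic glycerol 3-phosphate dehydrogenase (log2 fold change -1.69, or -0.88 under quantile normalization). Sds shares 360 exon bases with Plbd2 on the other strand, and Gpd1 shares 384 with an antisense gene. The 20 other genes of glycogen turnover were mixed, with 10 lower, 3 higher and a median log2 fold change of -0.29. Total-read scaling gave 2 lower and 12 higher, near the background of 11.1% and 66.8%, and the count of 10 lower was 6 without WT replicate 1 or without WT replicate 2. Stbd1, which tethers glycogen, fell without overlap (log2 fold change -1.13). Ugp2, which makes the UDP-glucose used by the synthase, was called at a log2 fold change of -0.61, which was 0.12 under total-read scaling and 0.17 under quantile normalization. Pgm2, a phosphoglucomutase, rose from 129 ± 14.1 to 414 ± 10.4 normalized counts (log2 fold change 1.68), and Gyg, glycogenin, the protein on which a glycogen chain is started, from 173 ± 18.2 to 394 ± 12.9 (log2 fold change 1.18).

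Of 30 genes of the glucagon and cAMP route and of the factors that act on gluconeogenic promoters, 18 were called lower and 2 higher, with a median log2 fold change of -0.73, and 9 were lower and 13 higher under total-read scaling, where the background was 11.1% and 66.8%. Klf15, a factor for amino acid catabolism and gluconeogenesis, fell from 3989 ± 373 to 773 ± 111 normalized counts (SD, n = 3, log2 fold change -2.37). Nr0b2, the repressor SHP, and Ppara, the fasting receptor for fatty acids, fell as well (log2 fold changes of -2.22 and -1.99). Sik1, a kinase that is induced by cAMP and holds back the coactivator Crtc2, rose from 540.2 ± 69.6 to 1123 ± 239.6 normalized counts (log2 fold change 1.04).

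The opposing route of glucose uptake fell too, with 6 of 6 genes called lower at a median log2 fold change of -1.94, and 5 of 6 under total-read scaling, beside 33.0% and 11.1% of all tested genes. Khk encodes ketohexokinase, which commits fructose to metabolism. It stood at 6467, 6512 and 5472 normalized counts in WT liver and 1311, 1792 and 1011 in Vps15LKO liver, with no overlap (log2 fold change -2.20, SE 0.19, limma adjusted p = 2.2e-05). Mlxipl, which encodes the carbohydrate response factor ChREBP, had a log2 fold change of -2.15.

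**Figure D4:**
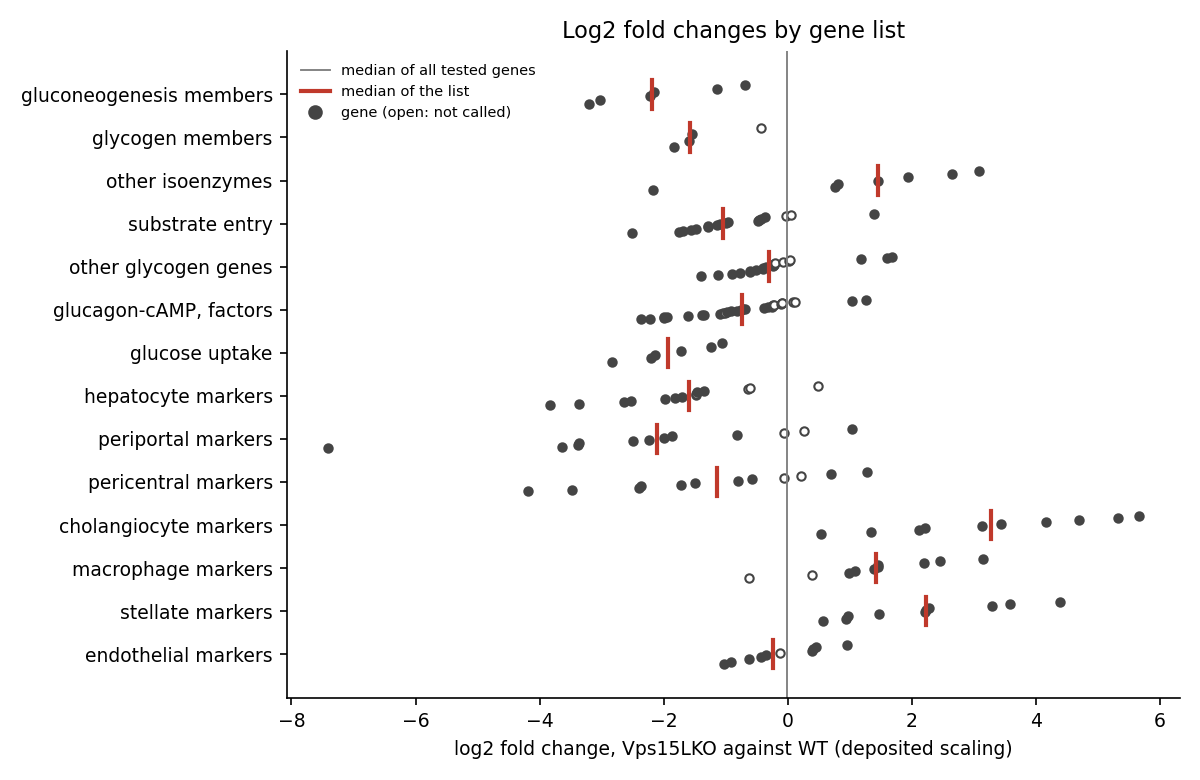
Log2 fold change of each tested gene (filled where called) by gene list under the deposited scaling, with the median of the list in red and the median of all tested genes as a grey line. The 10 genes sit left of the grey line, as do most hepatocyte markers, and the cholangiocyte and stellate markers sit right of it.

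The log2 fold changes of the 14 hepatocyte markers ran from -3.83 to 0.48 with a median of -1.60, a range that holds all of the 10 genes. The geometric mean of the 14 markers itself differed by -1.74 on the log2 scale. Set against this mean, 3 genes were lower in Vps15LKO liver without overlap between genotypes, 4 were higher without overlap and 3 overlapped. The same counts were not made over the whole table, so they have no background share. Across the 15430 genes the median change was -0.02, so a gene that hardly changed lies above the marker mean. Whether the 10 genes differ from other genes in this respect was not tested. The genes lower than this mean were Pck1 (difference of the log2 ratio -1.29), Slc37a4 (-0.48) and Fbp1 (-0.41), all of gluconeogenesis. The genes higher than this mean were Gbe1 (1.31), Ppargc1a (1.05), Pcx (0.60) and Pygl (0.15), whose own log2 fold change of -1.60 was that of the median marker to 2 decimals. G6pc (-1.47), Gys2 (-0.09) and Ppp1r3c (0.19) overlapped. Periportal hepatocytes, where gluconeogenesis is strongest, were followed through 12 markers, of which 9 were called lower and 1 higher (median log2 fold change -2.11), and pericentral hepatocytes through 12 others, of which 8 were lower and 2 higher (median -1.15), beside 33.0% and 33.5% of all tested genes. The periportal markers were 8 lower and 3 higher under total-read scaling (median -1.39) and 9 lower and 3 higher under quantile normalization (median -0.92), and the pericentral markers 6 and 4 (median -0.42) and 7 and 4 (median -1.11), where the shares of all genes were 11.1% and 66.8% under the first and 37.6% and 30.4% under the second. Cps1 and Ass1 of the urea cycle, the most abundant periportal markers, had log2 fold changes of -1.86 and -2.24, while the most abundant pericentral markers went apart, with Cyp2e1 at -3.47 and Cyp2a5 at 1.28.

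Among the 3 Vps15LKO livers, replicate 2 was the highest and replicate 3 the lowest in 8 of the 10 genes, an order held by 28.3% of all tested genes. Ppargc1a had the opposite order, with replicate 3 highest and replicate 2 lowest. The same order as in the 8 genes was seen in 13 of the 14 hepatocyte markers, and the reverse order in 9 of 10 cholangiocyte markers, against 28.3% and 20.1% of all tested genes. The first order was also found in 7 of 12 periportal, 4 of 12 pericentral, 7 of 10 endothelial, 5 of 10 macrophage and 3 of 10 stellate markers. Under total-read scaling the first order held in 6 of the 10 genes, 10 of 14 hepatocyte, 5 of 12 periportal, 4 of 12 pericentral, 3 of 10 endothelial, 2 of 10 macrophage and 1 of 10 stellate markers, against 13.6% of all tested genes, and the reverse order in 9 of 10 cholangiocyte markers, against 41.9% of all tested genes. The coefficient of variation was larger in Vps15LKO than in WT liver for all of the 10 genes but Ppargc1a, as in Pygl with 23.2% against 0.92%, while the median over all tested genes was 9.91% in Vps15LKO and 12.2% in WT liver. The part of cell composition in this spread was not tested.

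**Figure D5:**
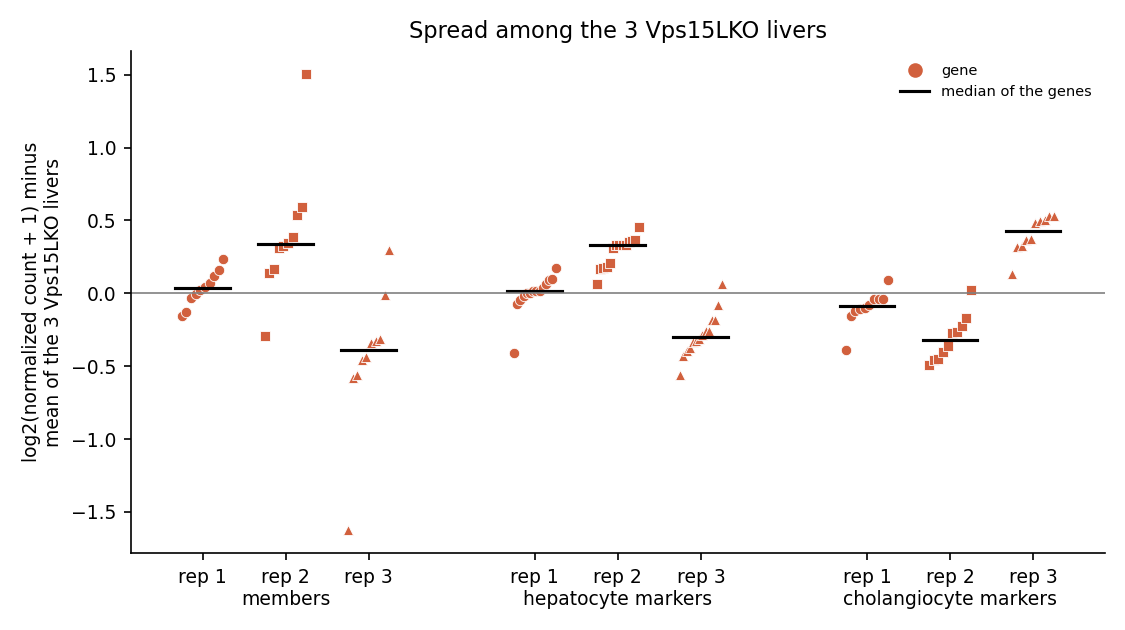
Log2(normalized count + 1) of each gene in the 3 Vps15LKO livers minus its mean over these livers, for the 10 genes, the 14 hepatocyte markers and the 10 cholangiocyte markers, with a line at the median of the genes. Most of the 10 genes and of the hepatocyte markers are above 0 in replicate 2 and below 0 in replicate 3, and most cholangiocyte markers the reverse.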

How the data were processed

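Poly(A)-selected libraries were made from liver RNA of 3 WT and 3 Vps15LKO mice, with the second cDNA strand marked and digested. Read filtering by the authors used SOAPnuke, mapping to GRCm38 (mm10) used HISAT2, and counting used featureCounts of Subread, after which DESeq2 size factors were applied. The deposited values are thus a signal, the count per gene over 1 size factor per library, for 56305 genes. Tool versions, and how featureCounts treated strand and multi-mapped reads, are not given in the sources used here. Because an overlap on the opposite strand is then uncertain, shared exon bases are given in the text for Gys1, Sds and Gpd1. Mlxipl (235 bases), Sds (a further 141), Ugp2 (78) and Pck2 (53) share exon bases with noncoding genes on the other strand, and none of the 10 genes shares exon bases with another gene. All values (100%) were whole multiples of 1 read within 0.01, so reads were recovered for the count-based alternatives.

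Genotype and replicate number came from the labels, and nothing ties a replicate number to a litter. The filter asked for 20 normalized counts or more in 3 or more of the 6 livers and left 15430 genes. The genotypes were compared with limma 3.58.1 (trend, R 4.3.3) on log2(normalized count + 1), p-values were adjusted by Benjamini-Hochberg over all of these genes, and fold changes are on that scale. Each mean is over 3 livers, whose spread includes counting error. Ratios were compared by exact permutation with scipy 1.17.1.

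The 10 genes and the lists were chosen with earlier results of these data known. Named genes are Pik3r4, the 10 genes, all isoenzymes, the 3 largest falls and rises of each further pathway list (called, mean of 100 or more, no overlap; some are not reported here), and the 2 most abundant markers of hepatocytes and their zones (the rule also took those of other cell types, given here as sums). The ratio of Gys2 to Pygl, the comparison with 14 hepatocyte markers and the order of the Vps15LKO livers were added after the data were seen. Symbols, coordinates and exon lengths came from GENCODE M21, which matched 55227 genes. The 19 alternatives were pseudocounts of 0.1 and 10, other filters, TMM, upper-quartile, quantile and total-read scaling, limma with no trend, count-based fits on recovered reads (limma voom, DESeq2 1.42.0, edgeR 4.0.16), a replicate block, and each liver left out in turn. A chi-square over genes between replicates found no copied library. The fit was tested on simulated data.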

Additional observations from a re-analysis of the deposited data

How the results depend on the processing

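The calls of Pck1, G6pc, Slc37a4, Fbp1, Gys2, Pygl and Ppp1r3c kept their direction and side of the threshold in all 19 alternatives. Pcx kept its call in 18 of 19 and Ppargc1a in 10 of 19. The count of the 10 genes called lower was 8 or 9 with a liver left out, 8 under quantile normalization and 8 under total-read scaling. Between 8398 (at least 20 normalized counts in every liver) and 12142 genes (no filter) were called where the deposited scaling gave 10262, edgeR called 10205, DESeq2 9951 and limma voom 10185. Of all calls, 49.7% were lower under the deposited scaling and 14.2% under total-read scaling. Total-read scaling, which moved the median of all tested genes up by 0.72, turned the direction of Ppargc1a (log2 fold change 0.030), Gbe1 (0.30), Ugp2 (0.12) and Pik3r4 (0.19). Quantile normalization turned that of Gbe1 (0.038) and Ugp2 (0.17), and the cause was not tested. With a replicate block limma called 10048 genes and 9 of the 10 genes lower: the call of Ppargc1a was lost (adjusted p = 0.055) and that of Gbe1 was gained (adjusted p = 0.023). Samples of the same number did not deviate together (correlations of -0.01, -0.01 and 0.05 over genes). Such correlations cannot show whether samples of the same number share a litter or a batch, and that was not tested. Ratios were not fitted with a block. With 3 livers a genotype, no ratio could reach an exact p under 0.1, and genes such as Fbp2 are too shallow to test.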
